A study of Mus musculus with 46 samples.

Results

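The initiation factor eIF2 and its kinases were followed here through 8 of the 55487 genes listed in every library. Those 8 were chosen by gene symbol, with earlier results of these data known. They are the 4 eIF2 kinases Eif2ak1, Eif2ak2, Eif2ak3 and Eif2ak4, the eIF2 subunit gene Eif2s1, the eIF2B subunit genes Eif2b3 and Eif2b5, and the phosphatase subunit gene Ppp1r15b. All 8 passed the filter on low counts in each of the 3 experiments. RNA was read in 46 mouse libraries. Tfam islets comprised 5 female and 3 male control and 4 female and 2 male KO libraries. For Clec16a, 4 control and 4 KO islet libraries came from the diet labelled RFD, and 6 control and 5 KO islet libraries from that labelled HFD. Livers, whose descriptions carry the letters AAV, fell into 6 labelled control, 4 Mfn DKO and 3 Tfam KO. Islets had been cultured overnight and livers flash frozen. Tfam encodes the mitochondrial transcription factor A, Clec16a a regulator of mitophagy, and Mfn1 and Mfn2 the mitofusins that fuse mitochondria. The labels used here give neither age, strain, promoter nor Cre driver, and they do not say what vector or allele the control livers or control islets carry. They give sex for the Tfam islets alone, and they do not write out the diets. Whether libraries of a group came from separate animals is not stated, so the p-values measure the spread between these libraries, which may be technical.

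eIF2 brings the initiator methionyl-tRNA to the ribosome, and eIF2B recharges it with GTP after each round. Phosphorylation of the α subunit, encoded by Eif2s1, turns eIF2 into an inhibitor of eIF2B, which lowers general protein synthesis while raising translation of the transcription factor ATF4; this is the integrated stress response. Each kinase answers another stress: Eif2ak1 (HRI) senses heme shortage and relays mitochondrial stress, Eif2ak2 (PKR) binds double-stranded RNA and is interferon-inducible, Eif2ak3 (PERK) senses misfolded protein in the endoplasmic reticulum, and Eif2ak4 (GCN2) senses uncharged tRNA. Eif2b5 encodes the catalytic subunit of eIF2B and Eif2b3 its partner γ subunit, while Ppp1r15b (CReP) directs protein phosphatase 1 to eIF2α in unstressed cells, as the stress-induced Ppp1r15a (GADD34) does under stress. In β-cells, loss of PERK is known to cause early diabetes. These proteins are regulated mainly by phosphorylation, which RNA levels do not show.

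The genes lie on 8 different chromosomes of GRCm38 (GENCODE M21 annotation, all protein coding). Eif2ak1 spans chr5:143817788-143904251 on the + strand (ENSMUSG00000029613), Eif2ak2 spans chr17:78852564-78882573 on the − strand (ENSMUSG00000024079), Eif2ak3 spans chr6:70844515-70905245 on the + strand (ENSMUSG00000031668), and Eif2ak4 spans chr2:118388618-118475234 on the + strand (ENSMUSG00000005102). Eif2s1 spans chr12:78861819-78887010 on the + strand (ENSMUSG00000021116), Eif2b3 chr4:117019402-117087306 on the + strand (ENSMUSG00000028683), Eif2b5 chr16:20498817-20509323 on the + strand (ENSMUSG00000003235) and Ppp1r15b chr1:133131143-133139783 on the + strand (ENSMUSG00000046062).

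The promoters of 3 genes are shown whose RNA was called different between KO and control libraries, with every CG pair in capitals, because CG-rich start regions are typical of broadly expressed genes. Each is the 250 bases before the start site, 5′ to 3′ on the gene's strand, from RefSeq on GRCm38.p6, at chr6:70844265-70844514 (Eif2ak3), chr2:118388367-118388616 (Eif2ak4) and chr16:20498567-20498816 (Eif2b5).
Eif2ak3: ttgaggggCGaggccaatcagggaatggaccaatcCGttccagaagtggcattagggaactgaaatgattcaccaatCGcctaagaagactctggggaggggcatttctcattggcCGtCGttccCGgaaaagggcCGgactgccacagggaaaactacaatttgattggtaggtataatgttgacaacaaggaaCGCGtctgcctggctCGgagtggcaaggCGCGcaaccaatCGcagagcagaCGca
Eif2ak4: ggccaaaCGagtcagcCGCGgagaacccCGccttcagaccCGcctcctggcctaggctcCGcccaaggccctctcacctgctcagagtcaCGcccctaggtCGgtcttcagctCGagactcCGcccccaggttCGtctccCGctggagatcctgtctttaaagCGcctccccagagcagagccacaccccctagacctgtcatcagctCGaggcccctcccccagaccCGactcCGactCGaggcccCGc
Eif2b5: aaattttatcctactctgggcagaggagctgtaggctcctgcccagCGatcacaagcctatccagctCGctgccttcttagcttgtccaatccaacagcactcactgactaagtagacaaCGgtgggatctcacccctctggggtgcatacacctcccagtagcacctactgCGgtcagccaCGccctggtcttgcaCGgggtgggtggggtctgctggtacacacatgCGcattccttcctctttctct
The windows held 14, 18 and 7 CG pairs. Of the 8 genes, 6 matched the RefSeq promoter table, with 7 windows since Eif2ak4 had a pair of start sites, and Eif2b3 and Ppp1r15b were without an entry. Over the 7 windows the median was 12 CG pairs (range 7 to 18), against a median of 6 (quartiles 2 and 16) over all 32851 windows in the table.

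Motifs were searched on both strands of the same 250-base windows, and a match is a description of the letters only. The C/EBP-ATF core TGATGNAA, the form through which ATF4 acts, was in none of the 7 windows and in 3.45% of all windows. The endoplasmic reticulum stress element, CCAAT and CCACG with 9 bases between them, was in none of the 7 and in 0.113% of all. The interferon response core, a GAAA repeated after 2 bases, was in the Eif2s1 window alone, against 2.98% of all windows. That window, chr12:78861822-78862071, was set from RefSeq's start site. The GENCODE start lies further upstream, and 250 of the 250 bases are in an annotated exon and 0 in coding sequence, so the match is within untranslated region there and its letters are not printed.

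Library totals ran from 55223041 to 83342809 counts in Tfam islets, from 16235173 to 55810879 in Clec16a islets and from 41961114 to 56894510 in livers. Targeted genes were read as CPM of the library total. Tfam lay at 17.25 to 20.35 in KO and 35.85 to 39.04 in control islets, and at 16.5 to 18.8 in KO and 50.32 to 59.79 in control livers. In Mfn DKO livers Mfn1 lay at 15.56 to 26.25 (control 63.01 to 78.55) and Mfn2 at 32.1 to 46.74 (control 102.4 to 167). Clec16a RNA did not separate its groups (KO 23.35 to 33.32, control 19.12 to 29.09), so it does not check those labels. In every Clec16a islet library the Y-linked gene Ddx3y was at 0 and Xist at 313.3 to 538.3. Female Tfam islets had 0 and 357.6 to 957.5, and male ones 89.63 or more and 1.898 or less. By these genes the Clec16a islets read as female, though the labels do not say so. A pair of libraries stood apart from their groups. On the mean log2 CPM of 21 ATF4 pathway genes, Clec16a KO HFD replicate 4 read 3.349, among the HFD controls (3.31 to 3.885) and below the other HFD KO libraries (5.154 to 5.533). Liver Tfam KO replicate 3 read 4.855, below replicates 1 and 2 (6.245 and 6.669). Calls and list counts in the comparisons of Clec16a KO on HFD and of Tfam KO liver are given with and without these libraries. Both were singled out on the ATF4 genes, so counts and medians of those genes without them carry no support of their own. Liver Tfam KO replicate 3 also stood apart on hepatocyte markers and interferon-stimulated genes, so the same holds for counts of those genes without it. Insulin and other β-cell markers dominated the islets (10 genes summing to 119400 CPM or more) and hepatocyte markers the livers (10 genes summing to 40740 CPM or more).

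Transcript levels were first compared per length, as the authors' TPM, over 18 control islet and 6 control liver libraries. Libraries from different experiments were not normalized together, and no test was made across them. On this scale Eif2ak3 differed most, at 24.3 ± 5.10 TPM (SD, n = 18) in islets and 7.64 ± 1.56 (SD, n = 6) in liver, a ratio of 3.18 with ranges that did not overlap (15.44 to 32.6 against 6.191 to 9.657). Ppp1r15b went the other way, at 27.7 ± 6.09 TPM (SD, n = 18) in islets and 52.2 ± 3.03 (SD, n = 6) in liver, a ratio of 0.530, again without overlap. Eif2ak4 was at 6.80 ± 1.20 TPM (SD, n = 18) in islets and 3.45 ± 0.597 (SD, n = 6) in liver, and Eif2s1 at 16.1 ± 5.84 and 24.0 ± 2.43 over the same libraries, both with overlapping ranges. The remaining 4 genes had ratios of 0.900 (Eif2b5), 0.978 (Eif2ak1), 1.004 (Eif2ak2) and 1.29 (Eif2b3) between islet and liver TPM. On 1 TMM scaling of all libraries without length, the ratios were lower, 2.20 for Eif2ak3 and 0.364 for Ppp1r15b, and that of Eif2b3 fell below 1, to 0.885; Ppp1r15b, not Eif2ak3, then differed most. The islet means also pool 2 experiments with different levels. Eif2ak2 was at 13.8 ± 2.54 TPM (SD, n = 8) in Tfam and 7.49 ± 1.18 (SD, n = 10) in Clec16a control islets, ratios to liver of 1.34 and 0.731, and Eif2ak1 at ratios of 0.804 and 1.12, so neither gene had a common direction. Eif2s1 was at 21.9 ± 2.95 TPM (SD, n = 8) and 11.6 ± 2.28 (SD, n = 10), ratios of 0.910 and 0.480. The other 5 genes kept their side of liver in both experiments, with ratios of 2.11 and 1.86 for Eif2ak4 and of 0.614 and 0.462 for Ppp1r15b.

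Within control tissue the kinases therefore stood in different orders on the TPM scale. In control islets the sequence from high to low was Eif2ak3, Eif2ak1, Eif2ak2 and Eif2ak4, while in control livers it was Eif2ak1, Eif2ak2, Eif2ak3 and Eif2ak4. The liver means of Eif2ak2 and Eif2ak3, 10.2 and 7.64 TPM, lay close to each other (8.489 to 11.48 and 6.191 to 9.657), with overlapping ranges. Neighbours overlapped in islets too. In Clec16a controls Eif2ak3 lay at 15.44 to 29.47 and Eif2ak1 at 17.2 to 23.11. In Tfam controls Eif2ak1 lay at 10.15 to 16.8 and Eif2ak2 at 9.884 to 18.66. Of the eIF2B genes, Eif2b5 was at 38.8 TPM in islets and Eif2b3 at 6.02.

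Across all 11 groups in mean TPM, liver Tfam KO was highest for 5 of the 8 genes. These were Eif2s1 (67.0 TPM), Eif2b5 (92.1), Eif2b3 (13.5), Ppp1r15b (68.1) and Eif2ak1 (23.2), on a scale on which the median gene was also higher in those livers by 0.66 log2 units. Eif2ak3 was highest in male Tfam control islets (31.2) and lowest in control liver (7.64). Eif2ak2 was highest in female Tfam KO islets (17.0) and lowest in Clec16a KO RFD islets (6.31), and Eif2ak4 ran from 10.04 in male Tfam KO islets to 3.45 in control liver. Eif2s1 was lowest in Clec16a control RFD islets (11.4 TPM). With the groups put in order of their means, neighbouring groups mostly overlapped: of 10 neighbouring pairs per gene, none was without overlap for Eif2ak2, Eif2ak3 and Eif2b5, 1 for Eif2ak1, Eif2ak4 and Eif2b3, and 2 for Eif2s1 and Ppp1r15b.

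**Figure D1:**
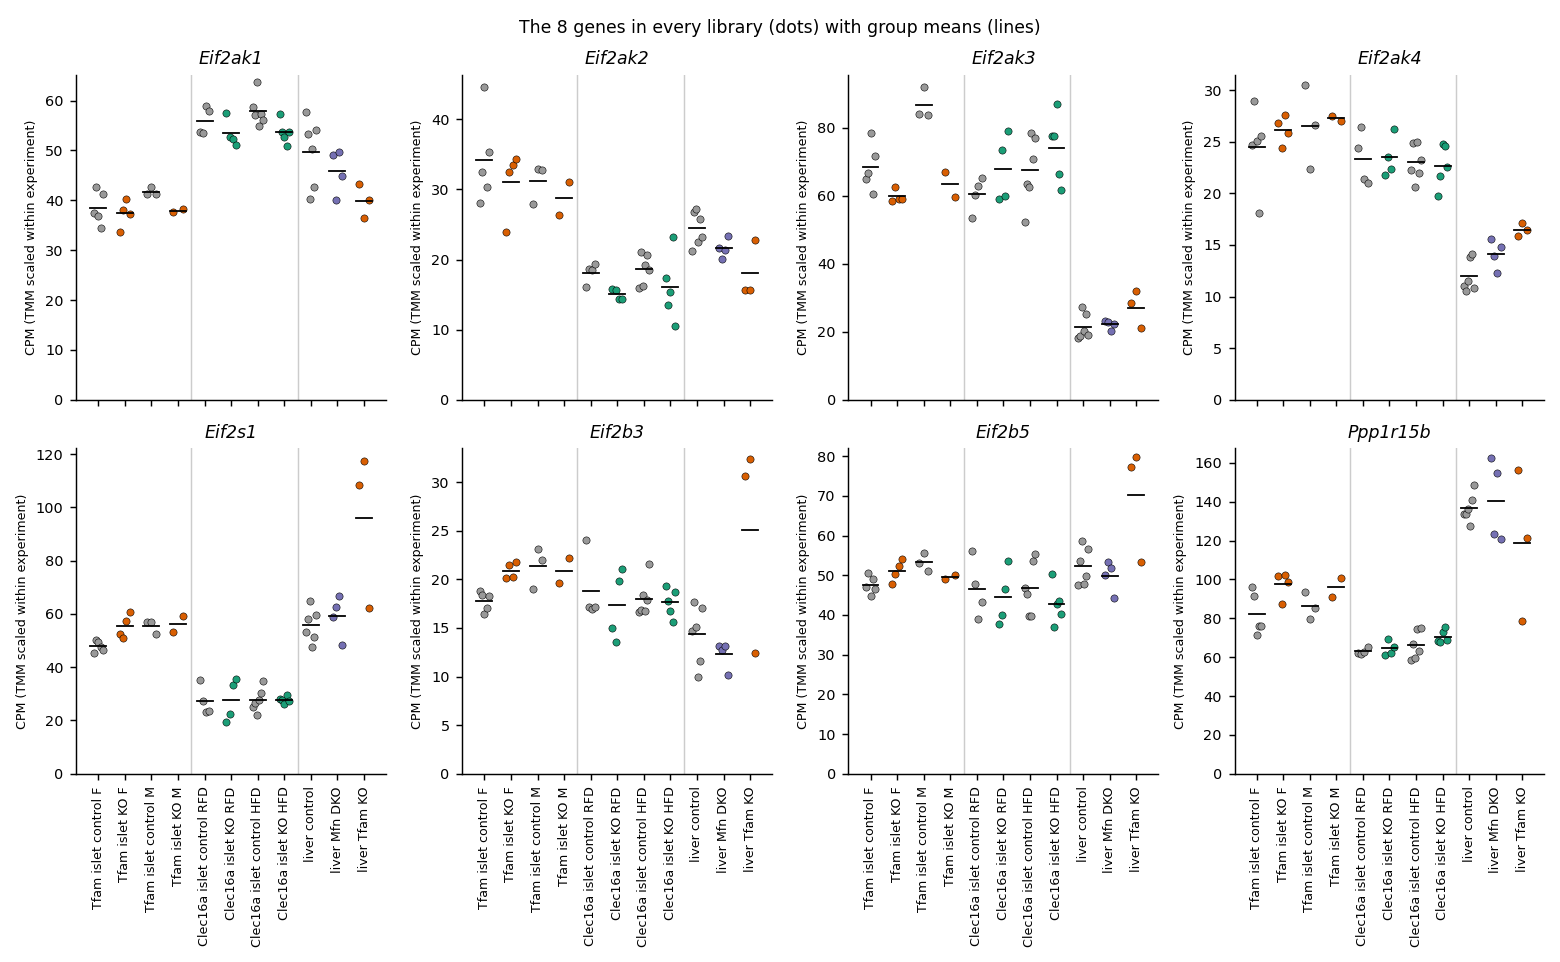
Level of each of the 8 genes in all 46 libraries, as CPM on TMM-scaled library sizes computed within each experiment (linear axis). Points are libraries, ordered by group, and short lines are group means. Liver Tfam KO replicates 1 and 2 stand at 108.5 and 117.3 for Eif2s1, above all 6 control livers, with replicate 3 at 62.27.

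The comparisons that follow use CPM with library sizes scaled by TMM. Tests are edgeR's quasi-likelihood F-test with Benjamini-Hochberg adjustment over all genes, and the word called is used of a gene whose adjusted p did not exceed 0.05. Because these are bulk samples, fewer cells of a type and less RNA per cell cannot be told apart.

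In Tfam KO islets the clearest difference among the kinases was in Eif2ak3, the endoplasmic reticulum kinase, which was lower, while Eif2ak1, Eif2ak2 and Eif2ak4 were not called. Over both sexes, with sex as an additive term, 2 of the 8 genes were called, Eif2ak3 lower and Ppp1r15b higher, beside 20.9% of the 19752 genes tested (11.6% higher and 9.29% lower). That is 25% of so few genes, close to the background. Their median log2 fold change was 0.05, against -0.01 for all genes.

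Eif2ak3 read 64.93, 66.79, 78.29, 60.47 and 71.7 in female control libraries and 58.52, 62.52, 59.14 and 58.9 in female KO libraries. In males it read 83.84, 91.9 and 83.83 in control and 67.03 and 59.68 in KO libraries. The male groups did not overlap, as was so for 3 of the 8 genes and 45.6% of all genes, and the female groups did, through control replicate 4. The log2 fold change over both sexes was -0.28 (SE 0.067, adjusted p = 0.00621; 8 control and 6 KO libraries), and it passed in each of the 14 fits that left out 1 library (adjusted p 0.00117 to 0.0270). In males alone it was -0.45 (SE 0.105, adjusted p = 0.0139), 1 of 8 genes called beside 8.93% of all genes. That call was lost without control male replicate 2 (-0.40, adjusted p = 0.0602) or KO male replicate 2 (-0.37, adjusted p = 0.193). In females alone it was -0.20 (SE 0.0764, adjusted p = 0.121). The difference between the sexes was -0.25 (SE 0.129, adjusted p = 0.834), so no difference between them was shown. For that interaction none of the 8 was called (0% of all genes), none had an unadjusted p under 0.05 and DESeq2 called none of them. Of 15 endoplasmic reticulum stress genes, the response to which PERK belongs, 3 rose and 5 fell in Tfam KO islets, with a median of -0.27; the sensor Ern1 rose by 0.99 (adjusted p = 3.65e-08) and the chaperone partner Dnajb9 fell by 0.77 (adjusted p = 3.98e-06).

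This lower level was relative to the other genes. When libraries were scaled by their totals alone, the median of all genes moved to 0.20, and Eif2ak3 read -0.08 (adjusted p = 0.476), with a change of 0.01 in females. In the authors' TPM the log2 ratio of group means was 0.08 for Eif2ak3 and 0.38 for the median gene. The β-cell markers moved at the same time: all 10 were called lower, and their sum ran from 119400 to 153200 CPM in KO against 178200 to 252600 in control islets, with none of the 10 at 0. In males, 3 of 8 macrophage markers were called higher, their sum being 219.3 CPM in both KO libraries and 113.5 to 122.1 in controls, and 3 of 6 fibroblast markers, at 86.02 to 92.7 against 29.87 to 43.14. The part of these markers in the Eif2ak3 result was not tested.

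Of the other kinases, Eif2ak1 lay at 33.72 to 40.32 in KO and 34.55 to 42.7 in control islets (log2 fold change -0.08), and Eif2ak4 at 24.44 to 27.61 and 18.05 to 30.51 (0.08). Eif2ak2 lay at 23.97 to 34.39 in KO and 27.85 to 44.67 in control islets (-0.13). All 3 overlapped fully or nearly so over both sexes, and on library totals Eif2ak1 and Eif2ak2 read 0.13 and 0.07, with the sign turned. In males alone the Eif2ak1 groups did not meet, as for 45.6% of all genes. There it lay at 37.57 and 38.28 in KO and 41.23 to 42.7 in control islets (-0.14, adjusted p = 0.433). Of 18 interferon-stimulated genes, the programme to which Eif2ak2 belongs, 3 fell and none rose, beside 20.9% of all genes called. Stat2, a transducer of interferon signals, was at -0.30 (adjusted p = 0.0106), and at -0.10 and not called on library totals. In females 5 of the 18 were lower and none higher (median -0.43), and in males none was lower and 1 higher (median 0.14). None of the 18 was called for the interaction with sex.

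Ppp1r15b read 95.91, 91.25, 71.61, 76.18 and 76.28 in female control libraries and 102, 87.16, 102.5 and 98.53 in female KO libraries. In males it read 93.47, 79.52 and 85.46 in control and 91.18 and 100.7 in KO libraries. KO libraries were mostly higher, but the groups overlapped in both sexes. The log2 fold change was 0.21 (SE 0.0735, adjusted p = 0.0491), just inside the threshold, and it was lost in 10 of the 14 fits that left out 1 library (adjusted p up to 0.112). It held without control female replicate 1 or 2, control male replicate 1 or KO female replicate 2. It was also lost with DESeq2's size factors (adjusted p = 0.0594), with no filter on low counts (0.0584) and with the exocrine marker score as a covariate (0.0539), a score set apart by KO male replicate 1, whose 14 exocrine markers summed to 21560 CPM against 9413 or less in the other Tfam islets. Its inducible counterpart Ppp1r15a rose more, from 33.1 ± 5.33 (SD, n = 8) in control to 86.7 ± 9.50 (SD, n = 6) in KO islets, a log2 fold change of 1.41 (SE 0.0845, adjusted p = 6.98e-09).

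For the eIF2α and eIF2B genes, the female KO libraries lay above the female controls in 2 of 3 genes, but none was called. In females, 0 of the 8 genes were called beside 10.8% of all genes, 4 were at an unadjusted p under 0.05 (24.8% of all genes), and DESeq2's Wald test called 2 (15% of all genes). Eif2s1 read 45.48, 50.38, 49.28, 47.75 and 46.32 in control and 52.58, 51, 57.35 and 60.9 in KO libraries of females (0.21, SE 0.0683, adjusted p = 0.0591). Eif2b3 read 18.78, 18.41, 16.4, 17.06 and 18.28 in control and 20.16, 21.47, 20.21 and 21.73 in KO libraries of females (0.23, SE 0.0765, adjusted p = 0.0661). Those were the 2 genes of the 8 whose female groups did not overlap, beside 13% of all genes. In males they were 57.07, 57.04 and 52.45 against 53.39 and 59.27 for Eif2s1, and 19.02, 23.1 and 21.95 against 19.63 and 22.15 for Eif2b3, with overlap in both. The calls in females turned on single libraries: Eif2s1 passed without KO female replicate 2 (adjusted p = 0.0425), Eif2b3 without control male replicate 1 (0.0443) and Eif2ak3 without control female replicate 4 (0.0351). Over both sexes Eif2s1 was at 0.15 (adjusted p = 0.0867, and 0.0475 without KO male replicate 1) and Eif2b5, the catalytic subunit gene, at 0.03, with levels of 47.83 to 54.16 in KO and 44.72 to 55.52 in control islets. In males the Eif2b5 groups did not meet, as for 45.6% of all genes, and KO was the lower. It lay at 49 and 50.01 in KO and 51.15 to 55.52 in control islets (-0.11, adjusted p = 0.475). On library totals, Eif2s1 (0.35), Eif2b3 (0.35) and Eif2b5 (0.24) were all called higher over both sexes, in each case by a little more than the median gene.

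Among the partners of these proteins, 2 of 6 other eIF2, eIF2B and eIF5 genes were higher and 1 lower in Tfam KO islets. Over all genes tested, 20.9% were called there (11.6% higher and 9.29% lower). Eif5, which triggers GTP hydrolysis by eIF2, rose by 0.66 (adjusted p = 4.11e-06), and the eIF2γ gene Eif2s3x, which has a near-identical copy on the Y chromosome with which its reads may be shared, rose by 0.32 (adjusted p = 0.00450). The eIF2B subunit gene Eif2b4 was at -0.21 (adjusted p = 0.0396), and at -0.01 on library totals. Of 14 regulators of the eIF2 kinases and phosphatases, Ppp1r15a was higher and Dnajc3, which inhibits PERK and PKR, lower (-0.43, adjusted p = 0.00236; -0.22 and not called on library totals). Of 21 genes of the ATF4 pathway, 20 rose and none fell, with a median of 1.49; Atf4 itself rose by 0.75 (adjusted p = 8.94e-05). Of 30 eIF3 and eIF4 genes, 6 were higher and 1 lower, near the share over all genes. The lowest adjusted p among them was that of the eIF3 subunit gene Eif3c, at 0.89 (adjusted p = 1.03e-08).

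**Figure D2:**
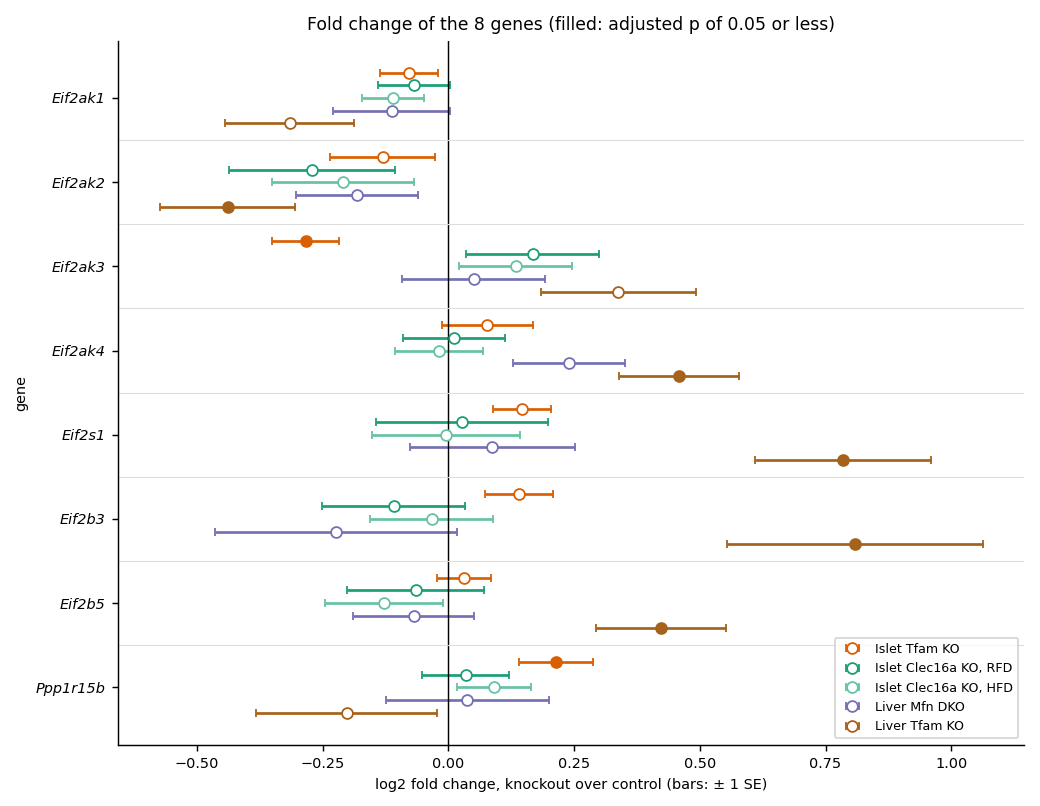
Log2 fold change of KO over control libraries for the 8 genes in 5 comparisons, with bars of 1 SE and filled points for an adjusted p of 0.05 or less. Eif2ak3 is at -0.28 in Tfam islets and 0.34 in Tfam KO liver, and filled points occur in the Tfam KO comparisons of islets and liver and in none of the other 3.

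In Clec16a KO islets none of the 8 genes was called on either diet, beside 7.52% of all 17254 genes tested on RFD and 9.57% on HFD. None reached an unadjusted p under 0.05 on either diet, and DESeq2's Wald test called none. Fold changes ran from -0.27 to 0.17 on RFD and from -0.21 to 0.13 on HFD, with medians of -0.03 on both. Precision limited these values, since SEs were 0.164 for Eif2ak2 and 0.132 for Eif2ak3 on RFD.

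Eif2ak2, the double-stranded RNA kinase, had the largest fold change on both diets. On RFD it read 16.09, 18.59, 18.48 and 19.43 in control and 15.78, 15.71, 14.42 and 14.36 in KO libraries, groups that did not overlap, as did not those of 15.1% of all genes. The log2 fold change was -0.27 (SE 0.164, adjusted p = 0.352), and the ratio of means was -0.22 among the libraries of lane 7 and -0.27 among those of lane 8, a lane being read from file names. On HFD control libraries lay at 16 to 21.01 (median 18.89, n = 6) and KO libraries at 17.41, 13.59, 15.43, 23.25 and 10.51. The highest of all 11 HFD libraries was KO replicate 4, the library that reads like a control on the ATF4 genes. With it the log2 fold change was -0.21 (SE 0.141, adjusted p = 0.415); without it, -0.38 (adjusted p = 0.0270), a call of 1 of 8 genes while 3369 genes, or 20% of those tested, were called in place of 1652. Of the 18 interferon-stimulated genes, none was called on RFD and 1, Ddx58, was lower on HFD (-0.44, adjusted p = 0.0379; -0.33 and not called on library totals). Without KO replicate 4, 1 was higher and 4 lower on HFD. Markers of another cell type differed too: all 6 endothelial markers were called higher in KO islets on both diets, their sum lying at 589.5 to 696.2 CPM in KO and 330.4 to 377 in control islets on RFD, and at 378.7 to 766.8 and 320 to 439 on HFD. Their part in the Eif2ak2 values was not tested.

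Eif2ak3 went in the opposite direction to Tfam islets without passing the test. On RFD it read 53.37, 60.27, 62.84 and 65.08 in control and 58.89, 73.38, 59.85 and 79 in KO libraries (0.17, adjusted p = 0.494). On HFD control libraries lay at 52.39 to 78.34 (median 67.04, n = 6) and KO libraries at 77.43, 77.46, 86.84, 66.49 and 61.6 (0.13, SE 0.113, adjusted p = 0.536; without replicate 4, 0.17 and 0.355). Groups overlapped on both diets. By lane, the log2 ratio of means on HFD was 0.23 in lane 7 and 0.03 in lane 8. On RFD it was 0.21 in lane 7 and 0.2 in lane 8, the latter with 1 KO library. The part of lane was not tested. The Tfam and Clec16a experiments were fitted apart and the difference between them was not tested.

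The remaining genes differed little by Clec16a genotype. Eif2ak1 lay at 51.17 to 57.58 in KO and 53.49 to 58.96 in control islets on RFD, and Eif2ak4 at 21.78 to 26.26 and 20.96 to 26.46. Eif2s1 spread widely within groups, at 19.5, 22.33, 33.14 and 35.4 in KO and 35.02, 27.36, 23.2 and 23.45 in control islets on RFD, so the direction turned with the library left out (-0.12 without KO RFD replicate 4, 0.17 without control RFD replicate 1). Eif2b3 and Eif2b5 varied alike: control RFD replicate 1 was highest of its group in all 3, with 24.03 for Eif2b3 and 56.17 for Eif2b5. Ppp1r15b lay at 61.12 to 69.26 in KO and 61.58 to 65.31 in control islets on RFD. Between diets none of the 8 was called, in control islets (beside 0.0406% of all genes, 7 in number) or KO islets (0.0116%, 2 genes), and no interaction of genotype and diet was called (0% of all genes); in all 3, none of the 8 had an unadjusted p under 0.05 and DESeq2 called none of them.

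In the same islets, Ppp1r15a rose on both diets, by 0.81 on RFD (adjusted p = 0.0128) and by 0.77 on HFD (adjusted p = 0.00480), and it was the only called gene among the 14 regulators on either diet with all libraries. None of the 6 other eIF2, eIF2B and eIF5 genes was called. Of the 21 ATF4 pathway genes, 15 were higher and none lower on either diet, with medians of 1.17 on RFD and 0.98 on HFD. Of the eIF3 and eIF4 genes, 29 were tested; Eif3c was higher on both diets (0.39 on RFD, adjusted p = 0.0469, and 0.37 on HFD, adjusted p = 0.0258), and Eif4g3, a scaffold protein gene, on HFD (0.48, adjusted p = 0.0254). Without KO replicate 4, the HFD values were 0.94 for Ppp1r15a (adjusted p = 6.73e-07), 0.48 for Eif3c and 0.60 for Eif4g3. In that fit 3 regulators were higher and 1 lower, and 2 of the 6 partner genes were higher, beside 20% of all genes called. Of the 21 ATF4 pathway genes, 18 were higher and none lower (median 1.18), but replicate 4 was set apart on these same genes.

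**Figure D3:**
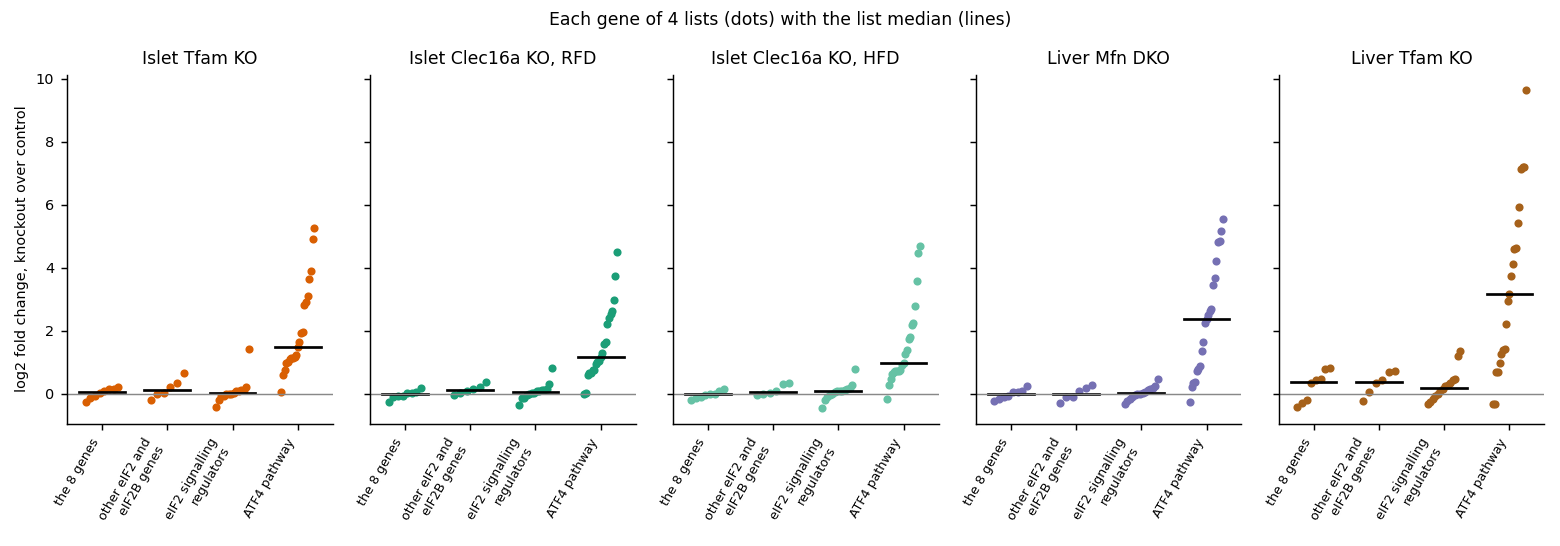
Log2 fold changes of KO over control in 5 comparisons for the 8 genes, the 6 other eIF2, eIF2B and eIF5 genes, the 14 regulators and the 21 ATF4 pathway genes. Dots are genes and bars are list medians. The ATF4 pathway medians run from 0.98 to 3.15, while those of the 8 genes run from -0.03 to 0.38.

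Mfn DKO livers showed no call among the 8 genes, beside 9.87% of all 17024 genes tested. None reached an unadjusted p under 0.05, DESeq2 called none, and the fold changes ran from -0.22 to 0.24. Eif2ak4, the amino acid kinase, was highest among them: control livers lay at 10.54 to 14.17 (median 11.3, n = 6) and Mfn DKO livers at 15.56, 13.91, 12.32 and 14.8, with overlap (0.24, SE 0.111, adjusted p = 0.181). Eif2b3 was lowest, at 9.924 to 17.69 (median 14.92, n = 6) in control and 13.11, 12.68, 13.17 and 10.19 in Mfn DKO livers. Eif2s1 lay at 47.46 to 64.68 (median 55.66) in control and at 58.99, 62.63, 66.88 and 48.5 in Mfn DKO livers (0.09). Ppp1r15b split within the Mfn DKO group, around a control range of 127.7 to 148.6. It read 162.3 and 155 in 2 livers and 123.3 and 120.8 in the other 2. The higher 2 were those with RNA of the Y-linked gene Ddx3y over 10 CPM (mean 158.6, against 122 in the others). Control means were 138.6 over that level and 134.9 under it, and the part of sex was not tested. Ppp1r15a was at 0.19 (adjusted p = 0.703) and Atf4 at 0.22 (adjusted p = 0.485). Of the 21 ATF4 pathway genes 14 were nevertheless higher and none lower (median 2.37), while none of the 6 partner genes and none of the 14 regulators was called.

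Of the comparisons with control libraries, Tfam KO liver gave the largest fold changes in these genes. Eif2s1, Eif2b3, Eif2b5 and Eif2ak4 were called higher and Eif2ak2 lower, 5 of 8 genes, beside 29.3% of all genes (18.1% higher and 11.3% lower). The median log2 fold change of the 8 was 0.38, against 0.03 for all genes. The values came largely from 2 of the 3 KO livers, as replicate 3 lay near the control livers for several genes. With the replicate number as a block in the fit, these calls were lost, as given below.

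Eif2s1, the substrate of all 4 kinases, lay at 47.46 to 64.68 in control livers (median 55.66, n = 6) and at 108.5, 117.3 and 62.27 in Tfam KO livers. Replicates 1 and 2 stood far above every control liver, and replicate 3 within their range. The log2 fold change was 0.78 (SE 0.175, adjusted p = 0.00671), and it passed in each of the 13 fits that left out 1 liver (0.618 to 0.998; adjusted p 0.000129 to 0.0416). Without replicate 3 it was 0.998.

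The eIF2B genes followed the same livers. Eif2b5 lay at 47.66 to 58.65 (median 51.68, n = 6) in control and at 77.33, 79.84 and 53.24 in KO livers (0.42, SE 0.129, adjusted p = 0.0277). Eif2b3 lay at 9.924 to 17.69 (median 14.92) in control and at 30.61, 32.35 and 12.39 in KO livers (0.81, SE 0.255, adjusted p = 0.0313). For both genes replicates 1 and 2 were above all controls and replicate 3 among them. Both calls were lost in 5 of the 13 fits that left out 1 liver, namely without control 1, 4 or 5 or KO replicate 1 or 2 (adjusted p up to 0.177 for Eif2b3 and 0.143 for Eif2b5), and both grew without replicate 3, to 1.11 and 0.57. Leaving the Mfn DKO livers out of the fit also ended both calls (adjusted p = 0.0744 and 0.0660), and with no filter on low counts Eif2b5 missed the threshold (0.0545).

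Among the kinases Eif2ak4 was higher, at 10.54 to 14.17 (median 11.3, n = 6) in control and 15.88, 17.1 and 16.43 in KO livers. This was the only gene of the 8 whose groups did not overlap, as did not those of 20.9% of all genes, and replicate 3 was as high as the others. The log2 fold change was 0.46 (SE 0.12, adjusted p = 0.0140), lost in 1 of the 13 fits that left out a liver, that without KO replicate 2 (adjusted p = 0.0532). Eif2ak2 lay at 21.29 to 27.27 (median 24.5) in control and at 15.71, 15.61 and 22.85 in KO livers, where again replicate 3 fell among the controls. Its log2 fold change was -0.44 (SE 0.135, adjusted p = 0.0284), lost without KO replicate 1 or 2 (adjusted p = 0.119 and 0.137), with no filter on low counts (0.0536) and without the Mfn DKO livers in the fit (0.0640). Without replicate 3 it was -0.66, and 15 of the 18 interferon-stimulated genes were called lower in that fit, beside 41.8% of all genes called. So were 5 of 8 macrophage markers (median -0.94), of which none was called with all livers. Of the 18 interferon-stimulated genes, 1 was called lower with all livers. Replicate 3 was highest of the KO livers on their mean log2 CPM (4.123, against 2.908 and 1.568) and on the macrophage sum. The counts of both sets without it therefore carry no support of their own.

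Eif2ak3 lay at 18.3 to 27.18 (median 19.6, n = 6) in control and at 28.41, 31.88 and 21 in KO livers, replicates 1 and 2 being above all controls. It was not called (0.34, SE 0.154, adjusted p = 0.114), but was so without replicate 3 (0.47, adjusted p = 0.0203), which made 6 of 8 beside 41.8% of all genes in that fit. Eif2ak1 lay at 40.17 to 57.61 (median 51.74) in control and at 43.25, 36.5 and 40 in KO livers, a log2 fold change of -0.32 (SE 0.128, adjusted p = 0.0787; -0.39 and 0.0336 without control 3). Ppp1r15b was at 156.2, 78.7 and 121.5 in the 3 KO livers, on both sides of the control range of 127.7 to 148.6 (-0.20, SE 0.179, adjusted p = 0.417).

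Scaling set part of these values. On library totals the median of all genes was 0.46, and Eif2s1 read 1.26, Eif2b3 1.299, Eif2b5 0.88 and Eif2ak4 0.89, all called, with Eif2ak3 called as well at 0.80. On that scale Eif2ak2 read -0.04 (adjusted p = 0.826), and Eif2ak1 and Ppp1r15b turned to 0.11 and 0.19. In the authors' TPM the log2 ratio of means was 1.48 for Eif2s1 and 0.16 for Eif2ak2, with a median of 0.66.

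The KO livers also differed from one another in other measures. Hepatocyte markers summed to 84760, 40740 and 111500 CPM in replicates 1 to 3 against 95320 to 136700 in controls, with 4 of 10 called lower (6 without replicate 3) and none at 0 in every library. The mean log2 CPM of 18 interferon-stimulated genes was 2.908, 1.568 and 4.123, against 3.54 to 4.39 in controls. Macrophage markers summed to 358.6, 283.2 and 621.8 CPM, against 279.4 to 591 in controls. Tfam itself was at 14.99, 13.14 and 15.94 CPM, so replicate 3 was as low in the targeted gene as the others. The part of these differences in the values of the 8 genes was not tested. The labels give no sex for livers, and Ddx3y, a Y-linked gene, was over 10 CPM in 3 of 6 control, 2 of 4 Mfn DKO and 1 of 3 Tfam KO livers. Among livers over that level the log2 ratio of means, with 1 KO liver against 3, was 0.93 for Eif2s1, 0.89 for Eif2b3, 0.55 for Eif2b5, 0.56 for Eif2ak4 and -0.60 for Eif2ak2. Among livers under it, with 2 against 3, it was 0.72, 0.87, 0.35, 0.35 and -0.39 in the same order. For these genes the direction was the same in both sets. Ppp1r15b turned, with 0.17 among livers over that level and -0.43 among those under it, and the part of sex was not tested.

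**Figure D4:**
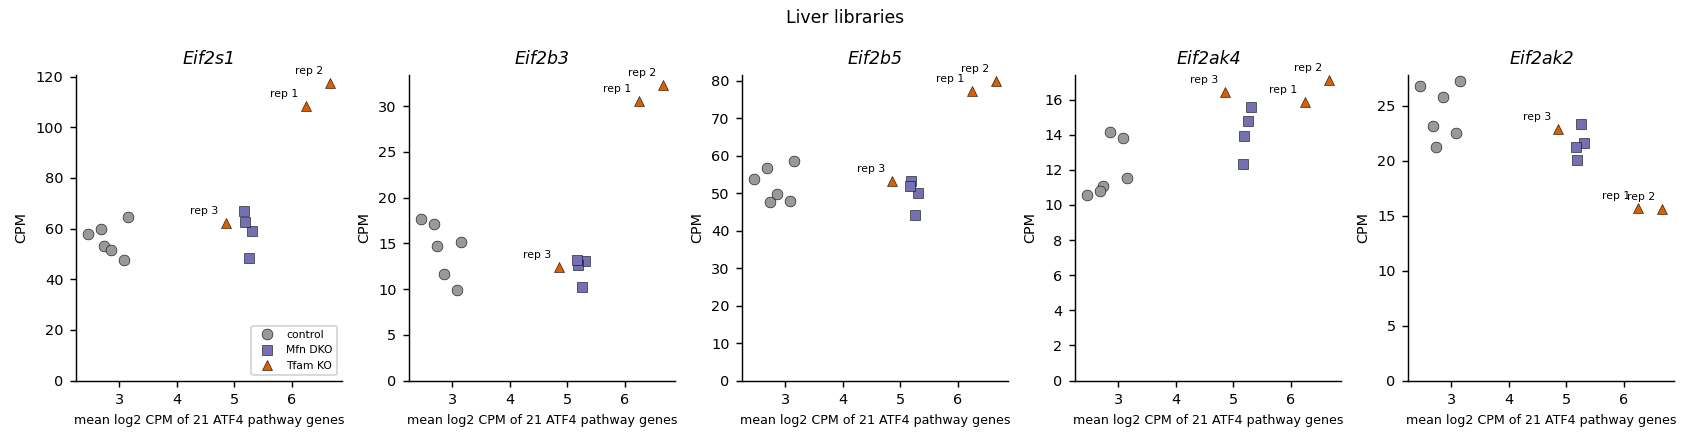
CPM on TMM-scaled library sizes of 5 genes (vertical axes) against the mean log2 CPM of 21 ATF4 pathway genes (horizontal axis) in the 13 livers, coloured by group, with the Tfam KO replicates labelled. Replicates 1 and 2, at 6.245 and 6.669 on the horizontal axis, stand away from the controls for Eif2s1, Eif2b3 and Eif2b5, while replicate 3, at 4.855, lies beside the Mfn DKO livers.

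Of the 6 partner genes in Tfam KO liver 2 were higher and none lower, beside 29.3% of all genes called. Eif5 rose by 0.71 (adjusted p = 0.00902) and Eif2s3x by 0.67 (adjusted p = 0.0120). Of the 14 regulators 4 were higher and none lower, so both counts lay near that share. Impact, which restrains GCN2, rose by 1.18 (adjusted p = 0.00331), Ppp1r15a by 1.37 (adjusted p = 0.00648) and Eif2d, which recycles ribosomes, by 0.46 (adjusted p = 0.0150). Ppp1r15a went from 13.6 ± 1.62 (SD, n = 6) to 35.1 ± 23.2 (SD, n = 3). Without replicate 3 the fold changes were 0.84 for Eif5, 0.71 for Eif2s3x, 1.43 for Impact, 1.73 for Ppp1r15a and 0.60 for Eif2d. In that fit 4 of the 6 partners were higher, and 7 regulators were higher and 1 lower, beside 41.8% of all genes called. Of the 21 ATF4 pathway genes 18 rose and none fell, with a median of 3.15, and Atf4 rose by 0.96 (adjusted p = 0.00570); without replicate 3 the counts were the same, the median 3.54 and Atf4 1.20. Of 30 eIF3 and eIF4 genes 13 were higher and 1 lower. Among them Eif3c rose by 1.35 (adjusted p = 0.00213), and Eif4ebp2, the gene of an inhibitor of eIF4E, fell by 0.92 (adjusted p = 0.00619). Without replicate 3, 16 were higher and 1 lower. Of 15 endoplasmic reticulum stress genes 2 were higher and 1 lower (2 and 7 without replicate 3), and of 18 interferon-stimulated genes 1, Stat2, was lower (-0.95, adjusted p = 0.0326; -0.61 and not called on library totals).

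Set directly against Mfn DKO livers, Tfam KO livers had no call among the 8, beside 0.294% of all genes. Eif2b3 was at 1.03 and Eif2s1 at 0.70 (both with an adjusted p of 0.101), and Eif2b5 at 0.49 (adjusted p = 0.104); these 3 were at an unadjusted p under 0.05 (20.4% of all genes), and DESeq2's Wald test called 3 of the 8 (6.39% of all genes). Without Tfam KO replicate 3 edgeR called 4 of 8, Eif2b3 at 1.35 (adjusted p = 0.00120), Eif2s1 at 0.93 (0.00156), Eif2b5 at 0.65 (0.00280) and Eif2ak2 at -0.47 (0.0159), as the genes called rose from 50 to 4204, or 24% of those tested. Eif2ak4 was the only gene of the 8 whose ranges did not meet, at 15.88 to 17.1 against 12.32 to 15.56, as was so for 10.8% of all genes. This comparison and that with control livers share the 3 Tfam KO livers. Of the 21 ATF4 pathway genes, none was called between the KO groups. Without replicate 3, which was set apart on these same genes, 10 were higher and 1 lower in Tfam KO.

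Eif2s1, Eif2b5 and Eif2b3 varied together over all 46 libraries, after each gene's log2 CPM was centred within its experiment. Pearson's r was 0.87 between Eif2s1 and Eif2b5, 0.84 between Eif2s1 and Eif2b3, and 0.81 between Eif2b3 and Eif2b5, while the other 25 pairs lay between -0.42 and 0.40. These values describe libraries that share depth, scaling and genotype effects, and carry no test. Over 14504 genes, those most like Eif2s1 were Wdr75, a ribosome biogenesis factor (0.92), Ctps, a CTP synthase (0.91), and G3bp1, a stress granule protein (0.89). The genes most like Eif2b3 were Ddx56, Rsl1d1 and Dnajc11 (0.91, 0.85 and 0.85), and Eif2b5 was close to Eif2s1 (0.87) and Atp6v1h (0.86). Each kinase had other nearest genes. For Eif2ak2 they were Ddx60 and Dhx58, both antiviral helicase genes (0.79 and 0.72), and Mthfd1 (0.72). For Eif2ak3 they were Arfgap3, which acts in retrograde Golgi transport (0.85), Clint1 and Slc30a7 (both 0.76). For Eif2ak4 they were Smchd1, Fsd1l and Dcbld2 (0.75, 0.74 and 0.73), and for Eif2ak1 Acsl1, Trim41 and Gphn (0.77, 0.76 and 0.74). Ppp1r15b was closest to Yy1, Rmnd5a and Zbtb44 (0.79, 0.78 and 0.78).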

How the data were processed

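Raw counts, TPM and CPM for 55487 genes per library came from the tables the authors deposited, per the file headers. Tests used the counts as deposited, which are whole numbers. The deposited CPM equalled the count over the library total, and the deposited TPM served only to compare levels per length. The submitters' processing notes name STAR 2.6.1b, RSEM 1.3.1, featureCounts, DESeq2 and GRCm38 with no roles; whether counting used strand is not given in the sources used here. Fits were made per experiment with edgeR 4.0.16 under R 4.3.3 (TMM, filterByExpr, quasi-likelihood F-test, Benjamini-Hochberg over all genes), with sex as an additive term for Tfam islets over both sexes and 1 mean per group elsewhere. SE is the fold change over the square root of F. DESeq2 1.42.0, other filters and scalings, covariates and each library left out were alternatives. Scripts were tested on simulated data. The 8 genes, the gene lists and the named genes (the up to 3 of each list lowest in adjusted p, and the 3 most correlated with each of the 8) were chosen with earlier results of these data known. A gene that this rule names is not reported here. No 2 libraries were duplicates: at most 0.671% of counts were identical between 2 libraries of an experiment. Deposited depth, 16235173 to 83342809 counts, gave each of the 8 genes at least 173 reads in every library; reads carry no molecular identifiers.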

Additional observations from a re-analysis of the deposited data

Results flagged for a closer look

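Single libraries were compared with the rest of their group for each of the 8 genes, in the 8 groups of 4 to 6 libraries, and 4 of the 64 sets had a library whose gap to its nearest neighbour took up more of the range than Dixon's 95% limit; chance alone gives about 1 in 20. Of these, 3 concerned Eif2b3. Clec16a control RFD replicate 1 read 24.03 CPM, with the other 3 libraries between 16.98 and 17.2. Clec16a control HFD replicate 6 read 21.58 CPM, against 16.61 to 18.35 in the others, and Mfn DKO liver replicate 4 read 10.19 CPM, against 12.68 to 13.17. For Eif2ak3, female Tfam KO islet replicate 2 read 62.52 CPM, against 58.52 to 59.14 in the other 3. The Eif2ak3 value lies inside the control range and is among the values behind the overlap of the female groups. No difference between sexes or diets in the genotype effect passed its test for any of the 8 genes.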

How the results depend on the processing

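Over the alternatives that keep every library, 564 values of the 8 genes were counted. They leave out the diet comparisons, the diet interaction, and Eif2ak1, Eif2ak2, Eif2ak4 and Ppp1r15b in the sex interaction. Of the 564, 503 kept their direction and their side of the threshold, 26 turned direction, 18 lost a call and 17 gained one. Where no cause follows from the setting itself, the cause was not tested. Scaling by library totals, added after seeing the data, moved the median gene by 0.20 in Tfam islets (both sexes) and 0.46 in Tfam KO liver and turned 19 of the 26. There, for Tfam KO islets, Eif2ak1 read 0.125 and Eif2ak2 0.074 over both sexes, 0.161 and 0.0697 in females and 0.0582 and 0.0819 in males, Eif2ak3 read 0.013 in females, and Eif2b3 0.167 and Eif2b5 0.091 in males. For Clec16a KO on HFD, Eif2ak1 read 0.0135, Eif2ak4 0.103, Eif2s1 0.11 and Eif2b3 0.0856. For Mfn DKO liver, Eif2ak1 read 0.0833, Eif2ak2 0.0101 and Eif2b5 0.125. For Tfam KO liver, Eif2ak1 read 0.11 and Ppp1r15b 0.192, and against Mfn DKO Eif2ak1 read 0.0268. Genes called on library totals numbered 6825 (4 of the 8) in Tfam KO islets over both sexes, 4766 (4) in females, 3169 (0) in males, 1 between diets in Clec16a KO, 8154 in Tfam KO liver and 1226 (3) between KO livers.

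Under DESeq2's Wald test, 2 of the 8 were called in Tfam islet females and 3 between KO livers. All genes called by it numbered 2708 in Tfam islet males, 34 for the sex interaction, 54 and 42 between diets in Clec16a control and KO, 20 for the diet interaction, 2870 in Mfn DKO liver and 1087 between KO livers. With DESeq2's size factors 1 of the 8 was called in Tfam islets over both sexes. Without a filter on low counts it was 1 in Tfam islets and 3 in Tfam KO liver, with 30 genes called for the sex interaction and 6 between diets in Clec16a KO. With at least 10 counts in every library, 1 of the 8 was called in females, and 27 genes between KO livers. With the exocrine score as a covariate, 1 of the 8 was called in Tfam islets over both sexes, 1961 genes in Clec16a KO on RFD and 0 between diets in Clec16a KO, and Eif2b3 in males read 0.0335, Eif2b5 on RFD 0.0084 and Eif2s1 on HFD 0.0072. With each of the 4 Tfam islet groups given a mean, added after seeing the data, 1 of the 8 was called and Eif2b5 read -0.0007. With lane as a covariate, 3 genes differed between diets in Clec16a control. With only the compared groups in the fit, 2 of the 8 (Eif2s1 and Eif2ak4) and 3228 genes were called in Tfam KO liver, 4338 genes in Mfn DKO liver, 7 between KO livers and 0 between diets in Clec16a KO, and Eif2s1 on HFD read 0.0036; over both sexes of Tfam islets this fit is the one reported. On 1 TMM scaling of all libraries the islet to liver ratios were 0.676 for Eif2ak1, 0.690 for Eif2ak2, 2.20 for Eif2ak3, 1.36 for Eif2ak4, 0.461 for Eif2s1, 0.885 for Eif2b3, 0.623 for Eif2b5 and 0.364 for Ppp1r15b.

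Replicate numbers are shared by the groups, and the labels used here do not say whether same-numbered libraries are paired. In Tfam islets, Clec16a islets and livers, 6 of 16, 3 of 25 and 5 of 10 same-numbered pairs had deviations correlated above 0.1. In the same order, 5 of 13, 1 of 18 and 4 of 11 libraries correlated best with their own number. These counts carry no test and do not settle whether libraries are paired. With the number as a replicate block, 1 of the 8 was called in Tfam islets over both sexes and 0 in Tfam KO liver; genes called numbered 975 in Clec16a KO on HFD, 3 between diets in Clec16a control, 169 in Mfn DKO liver, 395 in Tfam KO liver and 6 between KO livers; on HFD Eif2s1 read 0.0754 and Eif2b3 0.0241.

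Leaving out each library in turn, the 8 genes gave 1 to 2 calls in Tfam islets over both sexes, 0 to 1 in females, in males and in Clec16a KO on HFD, 1 to 6 in Tfam KO liver and 0 to 4 between KO livers. All genes called ran from 1336 to 2626 in females, 578 to 2541 in males, 0 to 1 for the sex interaction, 523 to 2015 in Clec16a KO on RFD, 786 to 3369 on HFD, 3 to 12 and 0 to 31 between diets in Clec16a control and KO, 686 to 3379 in Mfn DKO liver, 2504 to 7330 in Tfam KO liver and 24 to 4204 between KO livers. Directions that turned were read over the same comparisons and genes as the 564 values above, and belonged to genes that were not called. In Tfam islets these were Eif2ak1 in females (-0.083 to 0.0014), and Eif2ak4 (-0.067 to 0.156), Eif2b3 (-0.121 to 0.0522) and Eif2s1 (-0.056 to 0.0935) in males. In Clec16a KO they were Eif2ak4 (-0.0489 to 0.079), Eif2b3 (-0.217 to 0.0293), Eif2b5 (-0.17 to 0.0366) and Eif2s1 (-0.117 to 0.169) on RFD, and Eif2ak4 (-0.057 to 0.028), Eif2b3 (-0.069 to 0.0261) and Eif2s1 (-0.0665 to 0.0698) on HFD. In Mfn DKO liver they were Eif2ak3 (-0.0002 to 0.119) and Ppp1r15b (-0.0395 to 0.095), and in Tfam KO liver Ppp1r15b (-0.45 to 0.025). Where an omission left 1 library in a group, as for male Tfam KO islets, that library is assumed to vary like the others. The groups of 2 male Tfam KO islets and 3 Tfam KO livers are small, and the effect of depth was not compared with that of group size.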

Other observations

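Outside the eIF2 and eIF2B genes, Mfn DKO livers had 2 of 30 eIF3, eIF4 and related initiation genes lower and none higher, beside 9.87% of all genes called: Eif4a2, an eIF4A helicase gene, at -0.49 (SE 0.107, adjusted p = 0.0147) and Eif1b, a start-codon selection factor gene, at -0.43 (SE 0.119, adjusted p = 0.0383). Neither was called on library totals, at -0.29 and -0.24. In Tfam KO livers, where 29.3% of all genes were called, 13 of that list were higher and 1 lower, and none was called between the KO groups. There Eif3a, the largest eIF3 subunit gene, rose by 0.89 (adjusted p = 0.00402). The sensors Ern1 and Atf6, which signal endoplasmic reticulum stress beside PERK, were called higher in both KO livers: Ern1 rose by 0.60 in Mfn DKO (adjusted p = 0.0499) and by 0.80 in Tfam KO livers (adjusted p = 0.00982), and Atf6 rose by 0.53 (adjusted p = 0.0475) and by 0.55 (adjusted p = 0.0269). The list of 15 they come from had a median below 0, at -0.36 in Mfn DKO and -0.41 in Tfam KO livers. The other called gene of those 15, in Tfam KO livers, was Pdia4, a protein disulfide isomerase, at -0.67 (adjusted p = 0.0375; -0.29 and not called on library totals). Without Tfam KO replicate 3 the Tfam KO values were 1.12 for Eif3a, 0.97 for Ern1, 0.75 for Atf6 and -1.01 for Pdia4. These 2 comparisons share the 6 control livers. In Tfam KO islets Eif4a2 was at -0.29 (adjusted p = 0.00392; -0.09 on library totals), and the scaffold gene Eif4g3 rose by 0.58 (adjusted p = 6.98e-06).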
